A study of Mus musculus with 8 samples.

Results

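The genes examined here repair the lesions that cisplatin leaves in DNA, or copy DNA past them. They were chosen by name, from a list of 42 genes, and 40 of these had a probe set under their symbol among 18193 genes on the array. Xrcc2 and Fan1 were not analysed here. Each gene was followed at its probe set with the highest mean signal. The values are log2 signals, so that a difference of 1 is a doubling. By role, the list holds 9 genes of the Fanconi core complex and its conjugating enzyme Ube2t, 3 genes of the Fancd2-Fanci step, 9 recombination genes (8 measured), 5 nuclease and scaffold genes (4 measured), 10 nucleotide excision repair genes, 4 translesion genes and 2 checkpoint kinases. The first 4 of these roles make up the crosslink repair class, with 24 measured genes.

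RNA came from mouse adult fibroblasts (MAFs), grown from the peritoneal fascia of mice whose Rb1 alleles are both floxed (Rb loxP/loxP). All populations carried p53DD, a dominant negative p53 delivered by a retrovirus to pooled cells, so the p53 pathway was disabled in the controls as well. The Cre populations had received an adenovirus for GFP and Cre recombinase and lacked RB, and the GFP populations had received GFP alone and kept it. Cre Recurred and GFP Recurred cells had been exposed to cisplatin (CDDP) for 24 h and had then grown out in fresh media, whereas Cre Naïve and GFP Naïve cells had no drug. Each of the 4 populations was measured on 2 arrays, 8 arrays in all. The labels call the 2 arrays biological replicates, and the methods speak of independently generated populations, so the p values measure the spread between these replicates. Recurred cells are survivors of the drug, sampled after outgrowth, so the acute response was not measured.

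Cisplatin joins bases within a strand and, less often, across both strands. In the Fanconi anemia pathway, the core complex acts as a ubiquitin ligase that marks Fancd2 and Fanci at a fork stalled by a crosslink, nucleases then unhook the crosslink, translesion polymerases fill the gap, and homologous recombination rebuilds the fork. Nucleotide excision repair cuts out lesions within a strand. Many genes of crosslink repair and recombination are expressed most in dividing cells, and RB restrains the E2F transcription factors that act on genes of S phase.

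The targeted gene went with the labels. The log2 signal of the brighter Rb1 probe set was 4.98 and 5.45 in Cre Recurred and 6.21 and 5.72 in Cre Naïve cells, whereas it was 8.21 and 8.78 in GFP Recurred and 7.98 and 8.07 in GFP Naïve cells. Array medians lay between 5.38 and 5.41. Of 11 fibroblast markers, 9 were above the array median on all arrays, whereas Fap and Lum were not. For mesothelial cells 1 of 5 markers was above it on all arrays (Msln), for epithelial cells 1 of 5, for macrophages 1 of 5, for endothelial cells 1 of 4, for adipocytes 1 of 2 and for muscle 1 of 3. Cre Recurred replicate 1 stood apart in the fibroblast list. The median of the 11 markers, relative to each gene's mean over all arrays, was -1.37 and 0.02 on the Cre Recurred arrays and 0.23 and -0.04 on the Cre Naïve arrays, against 0.26 and 0.46 on the GFP Recurred arrays and 0.12 and -0.11 on the GFP Naïve arrays. Of the fibroblast markers 1 was called lower in Cre Recurred than in Cre Naïve cells, and against GFP Recurred cells 3 were called lower and 1 higher. Msln, a mesothelial marker, rose in Cre Recurred cells, with 8.86 and 7.82, against 6.25 and 6.15 in Cre Naïve cells. It was also called higher than in GFP Recurred cells, with 6.87 and 6.38. Krt19, another of the 5 mesothelial markers, had 7.23 and 6.26 in Cre Recurred cells and was called higher than in GFP Recurred cells, with 4.86 and 4.71. On the Cre Naïve arrays Krt19 had 4.48 and 6.11. Wt1 had 4.30 and 5.96 in Cre Recurred cells, against 5.83 and 5.96 in Cre Naïve cells, and Upk3b and Lrrn4 differed little. Between Cre Recurred and Cre Naïve cells the 5 log2 differences had a median of 0.0045, with 3 positive and 2 negative. Of the 3 muscle markers Des was called higher in Cre Recurred cells, with 7.28 and 7.49, against 5.72 and 5.75 in GFP Recurred cells. On the Cre Naïve arrays Des had 5.90 and 7.32. Myod1 and Myog differed by 0.14 and 0.27 on the log2 scale between the recurred populations. The share of all genes called higher was 0.456% against Cre Naïve cells and 4.81% against GFP Recurred cells. The share called lower was 1.2% and 6.55%. In such bulk RNA, fewer cells of a type and less RNA per cell cannot be told apart.

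A gene is said here to have risen or fallen when it differed by at least 1.5-fold with an adjusted p under 0.25 (limma, Benjamini-Hochberg over all 45037 probe sets), the thresholds used in the study. These thresholds admit many false calls, and an adjusted p under 0.05 is given as the stricter limit. With 2 arrays in each group, the smallest two-sided p of an exact permutation test is 0.333. Of the 40 genes, 39 lay above every array median on all arrays, and Ercc6 lay below it on all of them.

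Promoters are shown for 3 genes of the core complex. Fanca, a large subunit that assembles with Fancg, and Fancl, the ubiquitin ligase subunit, were higher in Cre Recurred than in GFP Recurred cells, and Fancg was lower. These 3 were chosen because members of 1 complex were called in opposite directions between the same populations. The Fancg call was seen at 1 of its 2 probe sets. It was the only lower call among 40 members (2.5%), under the 6.55% of all genes called lower. Each run covers 250 bases before and 50 after the start of the gene, 5′ to 3′ on the strand of the gene, from RefSeq on GRCm38.p6. Fanca lies at chr8:123318527-123318826 on the minus strand, Fancl at chr11:26386834-26387133 on the plus strand and Fancg at chr4:43010252-43010551 on the minus strand. Capitals mark an E2F motif.
Fanca: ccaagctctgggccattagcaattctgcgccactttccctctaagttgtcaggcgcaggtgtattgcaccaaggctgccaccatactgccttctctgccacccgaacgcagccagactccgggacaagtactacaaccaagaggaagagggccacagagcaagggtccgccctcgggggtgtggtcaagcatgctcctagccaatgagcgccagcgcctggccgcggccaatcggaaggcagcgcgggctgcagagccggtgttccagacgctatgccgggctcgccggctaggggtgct
Fancl: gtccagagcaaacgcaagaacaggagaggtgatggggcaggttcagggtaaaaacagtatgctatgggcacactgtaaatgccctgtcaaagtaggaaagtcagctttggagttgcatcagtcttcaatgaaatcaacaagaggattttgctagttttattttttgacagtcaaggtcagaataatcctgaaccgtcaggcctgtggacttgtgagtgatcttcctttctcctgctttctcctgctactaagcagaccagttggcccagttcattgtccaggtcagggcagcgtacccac
Fancg: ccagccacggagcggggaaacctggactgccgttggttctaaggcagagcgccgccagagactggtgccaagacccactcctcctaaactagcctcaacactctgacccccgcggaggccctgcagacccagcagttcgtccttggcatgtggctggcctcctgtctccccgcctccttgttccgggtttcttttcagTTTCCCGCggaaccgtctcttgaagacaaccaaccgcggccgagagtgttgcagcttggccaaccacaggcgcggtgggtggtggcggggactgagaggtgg

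The letters searched on both strands were TTTCCCGC, TTTCGCGC, TTTGCCGC and TTTGGCGC. They were found in 744 of 32851 promoter regions of the same length (2.26%) and in 4 of the 39 regions of members (10.3%). These belong to 3 of the 36 members with a promoter entry, Brca2, Fancg and Rad51c. In Fancg the match begins 52 bases before the start. The Fanca and Fancl windows hold none of these letters. CpG dinucleotides numbered 19 in the Fanca window, 3 in that of Fancl and 19 in that of Fancg, and the median was 22 over the members' windows and 7 over all windows. A match is a string of letters and no measured site.

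Recurrence in RB-deficient cells was the first comparison. Fanca rose in Cre Recurred cells and was the only member that passed. Its log2 signal was 8.86 and 8.53 in Cre Recurred cells, against 7.82 and 7.90 in Cre Naïve cells. Both recurred arrays were above both naïve arrays. The log2 difference was 0.83 (standard error 0.14, 95% interval 0.49 to 1.17, n = 2 arrays per population), or 1.78-fold, with an adjusted p of 0.153 from limma. The other Fanca probe set gave a log2 difference of 0.75 and did not pass (adjusted p 0.284, limma). The call of 1 in 40 members (2.5%) stood beside 1.65% of all genes, of which 0.456% were higher and 1.2% lower.

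The Fanca call rested on the pooled spread. It was lost with the SAM-type statistic (adjusted p 0.457) and with the 4 compared arrays alone (0.525), and no member passed without Cre Naïve replicate 1, Cre Recurred replicate 1 or either GFP Recurred array. Without Cre Recurred replicate 2, Fanca and Fancb passed.

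None of the other core genes passed in this comparison. Fancl had 8.56 and 8.77 in Cre Recurred cells, against 8.10 and 8.19 in Cre Naïve cells. The groups did not overlap, but the log2 difference of 0.52 (standard error 0.14) was 1.43-fold and had an adjusted p of 0.31 from limma. Fancb, which works in a module with Fancl, had 8.86 and 8.12 in Cre Recurred cells, against 8.08 and 8.25 in Cre Naïve cells. Its Cre Recurred arrays lay far apart, and 1 of them fell between the naïve arrays. Ube2t, the conjugating enzyme that serves Fancl, had 8.73 and 8.75 in Cre Recurred cells, against 8.56 and 8.44 in Cre Naïve cells. That small difference of 0.24 on the log2 scale did not pass (adjusted p 0.456, limma). Fance, which contacts Fancd2, had 7.37 and 7.46 in Cre Recurred cells, against 7.03 and 7.14 in Cre Naïve cells. Fancg lay in the other direction, with 5.58 and 6.05 in Cre Recurred cells, against 6.35 and 6.01 in Cre Naïve cells. The arrays overlapped, and its log2 difference of -0.36 (standard error 0.23) did not pass (adjusted p 0.543, limma). Over the 9 core genes, 7 log2 differences were positive, beside 57.3% of all genes. The median of the 9 was 0.24, beside 0.05 over all genes.

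**Figure D1:**
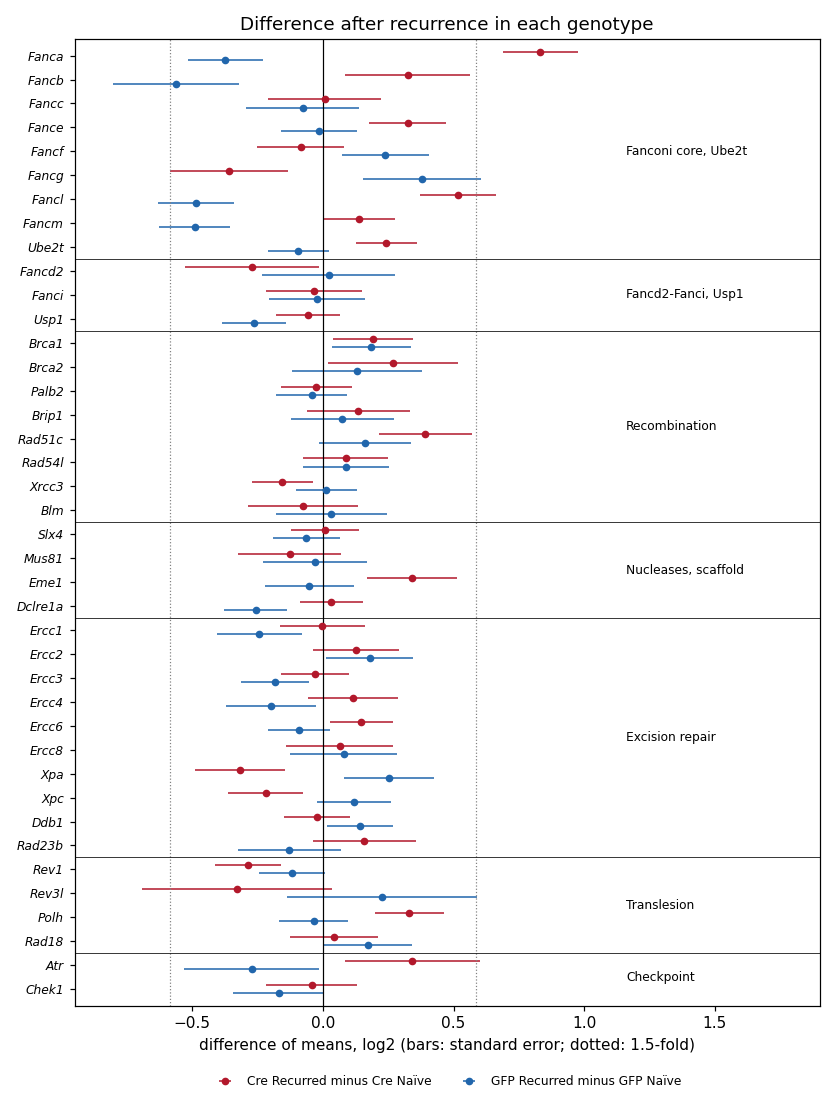
The log2 difference of the mean signals after recurrence is plotted for each of the 40 genes, grouped by role, with red points for Cre Recurred minus Cre Naïve and blue points for GFP Recurred minus GFP Naïve. Bars are standard errors and dotted lines mark 1.5-fold. Fanca at 0.83 is the only point past a dotted line on the right, and no blue point reaches one.

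Recurrence in RB-proficient cells called no member at the study's thresholds with limma, against 0.0165% of all genes. At an unadjusted p under 0.05 there were 3 members (7.5%), beside 5.93% of all genes, and the SAM-type statistic called none. These 3 were Fanca, Fancl and Fancm, all lower in the recurred cells. Fanca had 7.48 and 7.42 on the GFP Recurred arrays, against 7.79 and 7.86 on the GFP Naïve arrays, a log2 difference of -0.37 (standard error 0.14). Fancl had 7.44 and 7.67 on the GFP Recurred arrays, against 7.96 and 8.12 on the GFP Naïve arrays, a log2 difference of -0.49 (standard error 0.14). Fancm, the translocase that brings the core complex to chromatin, had 6.70 and 6.68 on the GFP Recurred arrays, against 7.30 and 7.06 on the GFP Naïve arrays. Its log2 difference was -0.49 (standard error 0.13), and in none of these 3 genes did the arrays of the populations overlap. The adjusted p was 0.871 for Fanca and Fancl and 0.868 for Fancm (limma). The other 2 Fancm probe sets gave log2 differences of -0.00 and -0.11, so the lower Fancm signal was seen at 1 of 3 probe sets.

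The recurrence effects of the 2 genotypes were then compared with each other. For Fanca the effect in Cre cells minus that in GFP cells was 1.20 on the log2 scale (standard error 0.20, 95% interval 0.73 to 1.68), and this interaction passed with an adjusted p of 0.222 (limma). It was the only one of 40 members (2.5%), beside 0.539% of all genes, of which 0.181% were positive and 0.357% negative. The second Fanca probe set gave 1.19 and did not pass (adjusted p 0.308, limma). The interaction was lost with a trended prior (adjusted p 0.258) and without any single array other than Cre Naïve replicate 2 or Cre Recurred replicate 2, so that no member then passed. Without Cre Naïve replicate 2 Fanca and Fancl passed, and without Cre Recurred replicate 2 Fanca, Fancb and Fancl passed. Fancl had 1.001 (standard error 0.20, adjusted p 0.269), which missed the threshold. Fancb had 0.89 and Fancm 0.63, with adjusted p values of 0.457 and 0.376 (limma). The second Fancb probe set gave 0.55 and the dim second Fancl probe set 0.22, whereas the other 2 Fancm probe sets gave -0.06 and 0.06. At an unadjusted p under 0.05 there were 5 members (12.5%), beside 12.4% of all genes. They were Fanca, Fancl, Fancb, Fancm and Xpa, the last at -0.57.

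A separate count asked how often all recurred arrays were above the naïve ones in Cre cells and below them in GFP cells. This held for 5 members, Fanca, Fancl, Fancm, Ube2t and Ercc6 (12.5%), beside 5.69% of all genes. The opposite arrangement held for none, beside 4.86%. Arrays did not overlap, in either direction, for 17 members (42.5%) between Cre Recurred and Cre Naïve cells, beside 45.2% of all genes, and for 16 members (40%) between GFP Recurred and GFP Naïve cells, beside 40.2%.

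The widest contrasts lay between the recurred populations. In Cre Recurred cells Fanca, Fancl, Fancb, Eme1 and Atr were higher than in GFP Recurred cells, and Fancg was lower. These 6 of 40 members (15%) stood beside 11.4% of all genes. By direction, 5 members were higher (12.5%, beside 4.81%) and 1 was lower (2.5%, beside 6.55%). At the stricter threshold Fanca and Fancl remained (5%), beside 1.1%. At an unadjusted p under 0.05 there were 12 members (30%), beside 20.7%. The Cre Recurred arrays are shared with the comparison against Cre Naïve cells, and the GFP Recurred arrays with that against GFP Naïve cells.

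**Figure D2:**
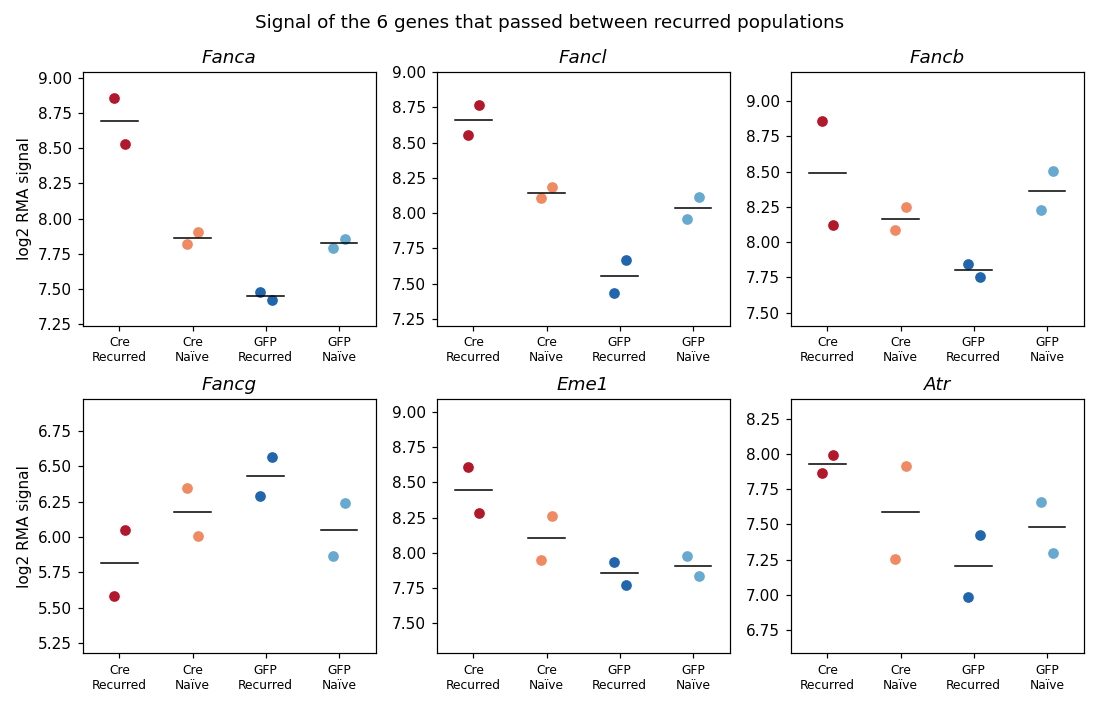
The log2 RMA signal on each array (points) and the mean of each population (lines) are plotted for the 6 genes that passed between Cre Recurred and GFP Recurred cells, with an axis span of 1.8 in each panel. Fanca and Fancl are highest on the 2 Cre Recurred arrays and lowest on the 2 GFP Recurred arrays, and the Fancg mean is lowest in Cre Recurred and highest in GFP Recurred cells, with overlap between some arrays of other populations.

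For Fanca the log2 difference between Cre Recurred and GFP Recurred cells was 1.24 (standard error 0.14), or 2.36-fold, with an adjusted p of 0.0275 from limma. For Fancl it was 1.11 (standard error 0.14), or 2.16-fold, with an adjusted p of 0.0384. The 4 Cre Recurred and GFP Recurred values of each gene are those given above, and the groups do not overlap. The second Fanca probe set gave 1.03. The second Fancl probe set was dim, with a mean signal of 3.13, and gave 0.11, and the mean of both Fancl probe sets gave 0.61.

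Fancb had 8.86 and 8.12 in Cre Recurred cells, against 7.85 and 7.76 in GFP Recurred cells, and rose by 0.69 on the log2 scale (adjusted p 0.212, limma). Its second probe set gave 0.59. Fancg, which binds Fanca in the core complex, had 5.58 and 6.05 in Cre Recurred cells, against 6.29 and 6.57 in GFP Recurred cells, and fell by 0.61 (adjusted p 0.232). Its second probe set gave -0.09, so the lower level was seen at 1 of 2 probe sets.

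Eme1, the partner of the Mus81 endonuclease, had 8.61 and 8.29 in Cre Recurred cells, against 7.94 and 7.77 in GFP Recurred cells, and rose by 0.59 (adjusted p 0.15). Mus81 itself had 7.89 and 7.87 in Cre Recurred cells, against 7.83 and 7.52 in GFP Recurred cells, and its log2 difference of 0.20 did not pass. Atr, the kinase that signals stalled forks, had 7.86 and 7.99 in Cre Recurred cells, against 6.99 and 7.43 in GFP Recurred cells, and rose by 0.72 (adjusted p 0.22). Its other probe sets gave 0.89 and 0.29. Chek1, the kinase that Atr activates, had 8.86 and 8.93 in Cre Recurred cells, against 8.54 and 8.84 in GFP Recurred cells, and its log2 difference of 0.20 did not pass (adjusted p 0.63, limma).

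Of the 6 calls, only Fanca and Fancl passed without Cre Recurred replicate 1 or without GFP Recurred replicate 1, and none passed without GFP Recurred replicate 2. Without Cre Recurred replicate 2, 6 members passed, with Xpa in place of Atr. Eme1 and Atr did not pass after cyclic loess, and Fancg did not pass with a trended prior or with the mean of its probe sets.

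A further 6 members had an unadjusted p under 0.05 and less than 1.5-fold. Dclre1a, an exonuclease that digests past crosslinks, had 7.89 and 8.02 in Cre Recurred cells, against 7.38 and 7.51 in GFP Recurred cells (log2 difference 0.51). Ube2t gave 0.50, Fancm 0.42 and Usp1 0.40. Usp1, which removes ubiquitin from Fancd2 and Fanci, had 11.98 and 11.95 in Cre Recurred cells, against 11.59 and 11.53 in GFP Recurred cells. Its other probe sets gave 0.70, which passed (adjusted p 0.217, limma), and 0.53, which was under 1.5-fold. The other probe sets of the remaining genes gave smaller differences, at 0.10 and 0.15 for Fancm, 0.25 and 0.15 for Dclre1a and 0.18 for Ube2t. Xpa and Polh are given below.

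**Figure D3:**
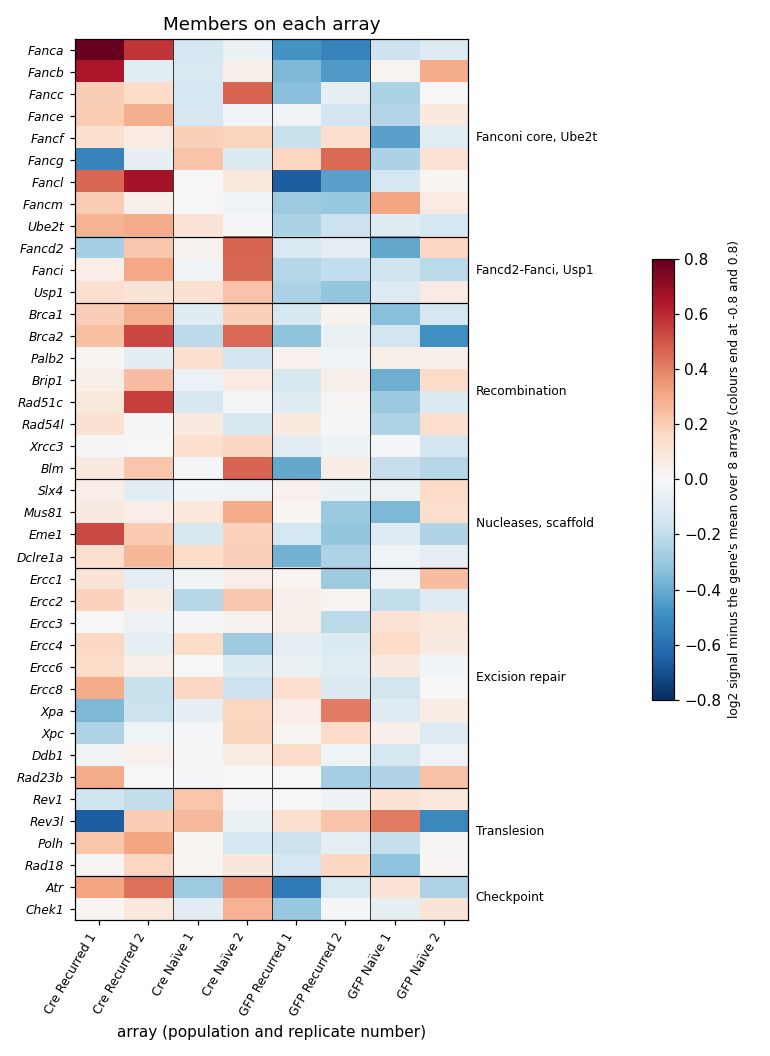
Each row is 1 of the 40 genes and each column 1 array, coloured by the log2 signal minus the gene's mean over 8 arrays. Red is higher and blue lower, and the colours end at -0.8 and 0.8. Fanca, Fancl, Ube2t and Usp1 are red on both Cre Recurred arrays and blue on both GFP Recurred arrays.

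No gene of the Fancd2-Fanci step passed in any comparison at its brightest probe set. Another Usp1 probe set passed between the recurred populations, as given above. Of all genes 11.4% passed between Cre Recurred and GFP Recurred cells and at most 1.65% in the others. With 3 genes the count cannot be told apart from those shares. Fancd2, the central substrate, had 7.42 and 7.90 in Cre Recurred cells, against 7.71 and 8.15 in Cre Naïve cells, with overlapping arrays and a log2 difference of -0.27 (standard error 0.26, 95% interval -0.87 to 0.33). Fanci, its partner, differed by -0.03 (standard error 0.18). Usp1 differed by -0.06 (standard error 0.12), so all 3 were between -0.27 and -0.03.

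Among the recombination genes none passed in any comparison at its brightest probe set. The 8 measured genes are too few to tell this from the shares of all genes, 11.4% between the recurred populations and at most 1.65% elsewhere. Rad51c, a recombination factor, had 7.53 and 7.99 in Cre Recurred cells, against 7.31 and 7.42 in Cre Naïve cells, a log2 difference of 0.39 (standard error 0.18, adjusted p 0.439, limma). Xrcc3, which pairs with Rad51c, had 6.09 and 6.11 in Cre Recurred cells, against 6.24 and 6.27 in Cre Naïve cells, a log2 difference of -0.16 (standard error 0.12). The Xrcc3 difference did not pass either (adjusted p 0.604, limma). Neither pair of populations overlapped, which held for 45.2% of all genes in this comparison. The 2 partners lay on opposite sides of 0, but both intervals included 0 (-0.03 to 0.81 for Rad51c, -0.43 to 0.12 for Xrcc3). An opposite change of the partners was therefore not shown. For the 8 measured recombination genes the log2 differences in Cre cells ran from -0.16 to 0.39 and those in GFP cells from -0.04 to 0.18. Brca2, a mediator of homologous recombination, differed by 0.58 between Cre Recurred and GFP Recurred cells (standard error 0.25, adjusted p 0.305, limma) and did not pass. Brca1, which acts upstream of it, differed by 0.29 and Palb2, which joins them, by -0.04. Another Brca1 probe set gave 0.74 between these populations and passed (adjusted p 0.204, limma), and the rest gave 0.38 and -0.28.

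None of the 10 excision repair genes passed in any comparison. Such a count lies near the shares of all genes, 11.4% between the recurred populations and at most 1.65% elsewhere, and does not set this class apart. Their median log2 difference was 0.03 in Cre cells and -0.01 in GFP cells, beside 0.05 and 0.01 over all genes. Xpa, which checks the damaged strand before incision, had 6.53 and 6.72 in Cre Recurred cells, against 6.82 and 7.06 in Cre Naïve cells. The log2 difference of -0.32 (standard error 0.17) did not pass (adjusted p 0.493, limma). Against GFP Recurred cells, with 6.94 and 7.30, Xpa differed by -0.50 (adjusted p 0.207), less than 1.5-fold. Its other probe sets, both dim with mean signals of 3.62 and 3.08, gave -0.57 and -0.12.

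Xpc, which finds distorted DNA, had 6.75 and 6.95 in Cre Recurred cells, against 6.97 and 7.17 in Cre Naïve cells, a log2 difference of -0.22 (standard error 0.14). Ercc1, which forms the 5′ incision nuclease with Ercc4, differed by -0.00 (standard error 0.16) and Ercc4 by 0.12 (standard error 0.17). The TFIIH helicases differed by 0.13 (Ercc2) and -0.03 (Ercc3), and Ddb1, of the ultraviolet damage sensor, by -0.02. The precision differed between genes, with a 95% interval of the difference in Cre cells from -0.32 to 0.28 for Ddb1 and from -0.72 to 0.09 for Xpa.

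Among the translesion genes, Polh, the polymerase that copies past cisplatin lesions within a strand, had 9.71 and 9.80 in Cre Recurred cells, against 9.50 and 9.34 in Cre Naïve cells. The groups did not overlap, and the log2 difference was 0.33 (standard error 0.13) with an unadjusted p of 0.041 and an adjusted p of 0.399 (limma), under 1.5-fold. Its other 3 probe sets, of which 1 was dim with a mean signal of 3.71, gave 0.40, 0.37 and 0.30. At an unadjusted p under 0.05 there were 3 members in this comparison (7.5%), which were Fanca, Fancl and Polh, beside 14% of all genes. Against GFP Recurred cells, with 9.31 and 9.41, Polh differed by 0.39 (adjusted p 0.201).

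Rev1, a scaffold for translesion polymerases, had 8.08 and 8.04 in Cre Recurred cells, against 8.46 and 8.23 in Cre Naïve cells. Its log2 difference of -0.29 (standard error 0.13) did not pass. Rev3l, the catalytic subunit of polymerase zeta, differed by -0.33 with a standard error of 0.36, the widest of the 4. Rad18, the ubiquitin ligase for PCNA, differed by 0.04. The class median was -0.12 in Cre cells and 0.07 in GFP cells, and neither sign was stable. In Cre cells it was 0.11 without Cre Recurred replicate 1, and without probe sets with shared-probe suffixes it was 0.043 in Cre cells and -0.12 in GFP cells. In GFP cells it was -0.052 without GFP Naïve replicate 1, -0.034 without GFP Naïve replicate 2 and -0.031 without GFP Recurred replicate 2.

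The mean recurrence effect of both genotypes called no member with limma, beside 0.0934% of all genes, and at an unadjusted p under 0.05 none, beside 8.46%. With no drug, Cre Naïve and GFP Naïve cells did not differ by call in any member or any gene (0%). Fancf, an adaptor of the core complex, was the only member at an unadjusted p under 0.05 (2.5%, beside 2.45%), with 8.91 and 8.90 in Cre Naïve cells, against 8.29 and 8.64 in GFP Naïve cells. Of the 40 log2 differences between Cre Naïve and GFP Naïve cells 30 were positive, with a median of 0.11, beside 49.7% of all genes and a median of -0.00. Between Cre Recurred and GFP Recurred cells 32 were positive, with a median of 0.20, beside 56.7% and 0.04. In the crosslink repair class these counts were 19 and 21 of 24, with medians of 0.18 and 0.35.

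By class, the median log2 difference between Cre Recurred and GFP Recurred cells was 0.35 in the crosslink repair class, 0.08 in the excision repair class and -0.04 in the translesion class, beside 0.04 over all genes. Between Cre Recurred and Cre Naïve cells the medians were 0.06, 0.03 and -0.12. The crosslink median was 0.17 without Cre Naïve replicate 2, and the translesion median 0.11 without Cre Recurred replicate 1.

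Neighbouring genes of these pathways were read from lists of further genes. Of 22 further crosslink and recombination genes, 5 were higher in Cre Recurred than in GFP Recurred cells and 1 was lower, and none passed in another comparison. Over all genes 4.81% were higher and 6.55% lower in this comparison, which also holds for the counts that follow. Mre11a, the nuclease of the Mre11-Rad50-Nbn complex, differed by 1.05 (adjusted p 0.0403, limma), Gen1, a resolvase, by 0.81, Uhrf1, a reader of hemimethylated DNA, by 0.77, Rfwd3, a ubiquitin ligase, by 0.73 and Exo1, an exonuclease, by 0.71. Rad54b, a translocase, was lower by a log2 difference of -0.77. Of 20 further excision repair genes none passed. Of 15 further translesion genes Poli, a polymerase, was higher (1.51, adjusted p 0.0692), and of 17 checkpoint genes Timeless, a fork protection factor, was higher (0.66).

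Genes of dividing cells were read beside the core complex. Of 20 cycling genes, 3 were higher in Cre Recurred than in GFP Recurred cells, beside 4.81% of all genes, namely Cdt1 (0.90), Ccna2 (0.75) and Bub1 (0.63), and none passed elsewhere. Relative to each gene's mean, their median was 0.23 and 0.11 on the Cre Recurred arrays and -0.03 and 0.07 on the Cre Naïve arrays, against -0.13 and -0.18 on the GFP Recurred arrays and -0.09 and -0.05 on the GFP Naïve arrays. The median of the 9 core genes was 0.20 and 0.15 on the Cre Recurred arrays and -0.00 and -0.01 on the Cre Naïve arrays, against -0.29 and -0.17 on the GFP Recurred arrays and -0.17 and 0.02 on the GFP Naïve arrays. The part of cycling, or of the low fibroblast marker signals of Cre Recurred cells, most of all replicate 1, in these differences was not tested. Nor was that of the Msln, Krt19 and Des signals, of which Krt19 and Des were also high on Cre Naïve replicate 2.

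**Figure D4:**
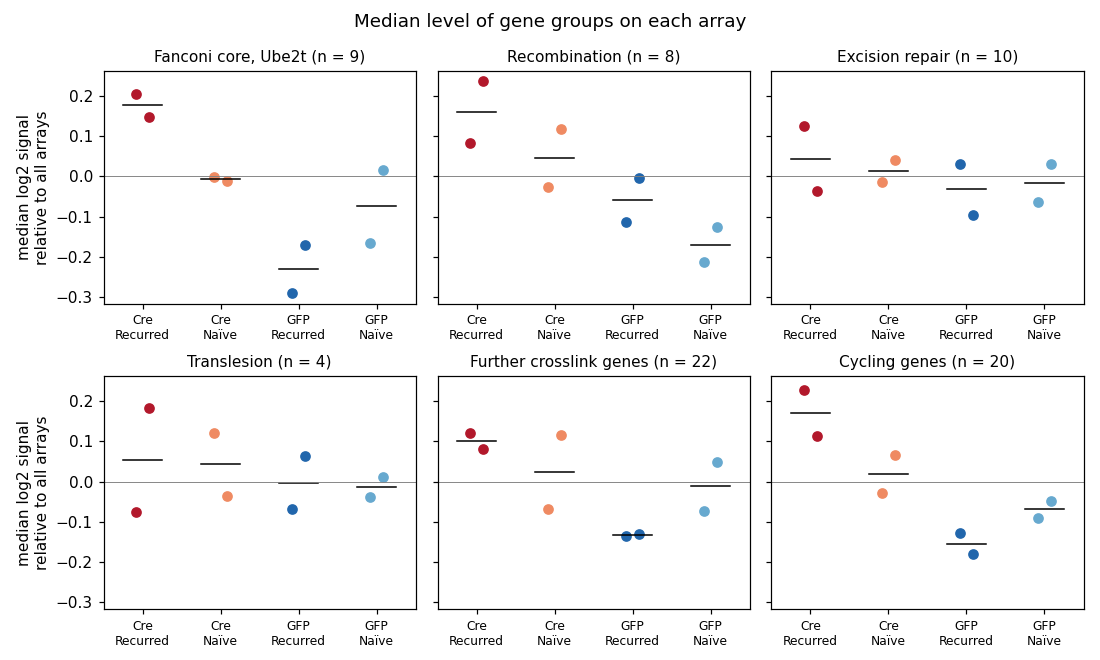
Points are the median log2 signal of a gene group on each array, relative to each gene's mean over the 8 arrays, and lines are the means of the 2 arrays of a population. The core genes and the cycling genes are highest on the Cre Recurred arrays and low on the GFP Recurred arrays, whereas the excision repair medians lie between -0.10 and 0.12 on all arrays.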

How the data were processed

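RNA of the 4 MAF populations was measured on Affymetrix mouse expression arrays, 2 per population. The authors deposited log2 values of the RMA procedure (background correction, quantile normalization and summary per probe set), which were used unchanged. The RMA software version is not given in the sources used here. Of 45101 probe sets, 64 controls were left out and 45037 tested. By the array annotation 34945 carried 1 symbol, 932 several and 9160 none, and 1 further gene was matched by a synonym (Mre11, as Mre11a).

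limma 3.58.1 in R 4.3.3 was fitted to all 8 arrays with 1 mean per population (residual degrees of freedom 4), and p values were Benjamini-Hochberg adjusted over 45037 probe sets. The study used SAM, and a SAM-type statistic was an alternative, except for the interaction. Further alternatives were cyclic loess, median centring, a trended and robust prior, the compared arrays only (not possible for the mean or the interaction), the replicate number as a block, no dim probe sets, no probe sets with shared-probe suffixes, the mean of a gene's probe sets, and each array left out. The members and lists were chosen with earlier results of these data known. Values were given per array for members that passed in any comparison, had an unadjusted p under 0.05 in a recurrence comparison, or had 1 of the 2 smallest p values of their role in the Cre recurrence comparison. Fance, Ube2t, Dclre1a and Fancf were named after their values were seen. Scripts were tested on simulated data. The number of arrays limits the precision. Figures were drawn with Python 3.11.15 and matplotlib 3.10.9.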

Additional observations from a re-analysis of the deposited data

Results flagged for a closer look

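The recurrence effect differed between the genotypes by the test of the difference itself for Fanca, by 1.20 on the log2 scale (standard error 0.20, adjusted p 0.222, limma), Cre minus GFP. This call was lost with a trended and robust prior (adjusted p 0.258) and without any single array other than Cre Naïve replicate 2 or Cre Recurred replicate 2. In 4 further genes both recurred arrays were above the naïve ones in Cre cells and below them in GFP cells, while the interaction did not pass. It was 1.001 for Fancl (adjusted p 0.269, limma), 0.63 for Fancm (adjusted p 0.376), 0.34 for Ube2t (adjusted p 0.527) and 0.24 for Ercc6 (adjusted p 0.661), whose signal lay below the array medians. The second Fanca probe set gave an interaction of 1.19 that did not pass (adjusted p 0.308, limma). The other 2 Fancm probe sets gave interactions of -0.06 and 0.06. The second probe sets of Fancl and Ube2t, both dim, gave 0.22 and 0.19. With Fanca, this arrangement, above in Cre and below in GFP cells, held for 5 of 40 members (12.5%), beside 5.69% of all genes. The reverse, below in Cre and above in GFP cells, held for none, beside 4.86%.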

How the results depend on the processing

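Differences that were called, or had an unadjusted p under 0.05 in the main fit, were followed under the alternatives. Of these values, 356 kept their direction and side of the threshold, 33 lost the call, 5 gained it and none reversed. Only called differences could lose a call, and the 356 include many that were not called and stayed so. For Cre Recurred against Cre Naïve cells the number of members called was 1, and it was 0 with the SAM-type statistic, with the compared arrays only and without probe sets with shared-probe suffixes, which leaves out both Fanca probe sets. With each array left out it ran from 0 to 2. For Cre Recurred against GFP Recurred cells it was 6, with 0 to 6 when an array was left out. For the interaction it was 1, with 0 under a trended and robust prior and without shared-probe suffixes, and 0 to 3 when an array was left out. The median log2 difference of the translesion class was -0.12 in Cre cells and 0.07 in GFP cells, and without shared-probe suffixes 0.043 and -0.12. With each array left out it ran from -0.16 to 0.11 in Cre cells and from -0.052 to 0.15 in GFP cells, that of the crosslink class from 0.029 to 0.17 and from -0.13 to -0.013, and that of the excision class from -0.045 to 0.14 and from -0.076 to 0.078. In GFP cells the excision median was 0.080 without dim probe sets. The cause of these shifts was not tested. Arrays with the same replicate number deviated from their population means with correlations between -0.255 and 0.307 and were not taken as pairs. With the replicate block the counts were 1, 6 and 1 as before, but the interaction then passed for Fancl (adjusted p 0.248, limma) and not for Fanca (0.254). Where 1 array was left out, the remaining one was taken to vary as the other populations do.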
